A study of Mus musculus with 17 samples.

Results

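Mitf, Trpm1, Mras, Spic, Cdx1, Cybb, Slc51a and Hal are 8 genes, among 53588 gene symbols quantified in mouse embryonic stem (ES) cells, whose RNA was lower at 24 h than at 0 h in each of 5 transgenic lines. They were picked for that fall: all 8 stand among the 12 largest average decreases of 1533 named protein-coding genes. Those 1533 passed the test, fell in every line and reached a mean of 5 CPM. Noncoding genes and genes with placeholder symbols, such as those in Gm or Rik, were not ranked. CPM is a gene's estimated read count scaled to the adjusted library total. The fall itself is therefore given as a description, and nothing is read from a test of it. The largest was that of Slc51a, and Trpm1 was the last gene inside the 12, with an average log2 change of -3.84 (SE 0.30). The first gene outside was Slc15a1, at -3.77 (SE 0.46).

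The 17 RNA-seq libraries come from lines iFoxA1, iFoxC1, iFoxG1, iFoxL2 and iFoxP3, all made from MC1 ES cells (129S6/SvEvTac). Each line holds the reading frame of the named forkhead factor in Rosa26, with a His6-FLAG tag at its C terminus, a puromycin resistance gene and a promoter that doxycycline (Dox) keeps off. At 0 h the cells were in medium with 15% serum, 1000 U/ml leukemia inhibitory factor (LIF), 0.2 µg/ml Dox and 1 µg/ml puromycin. At 24 h they had been washed free of Dox, with 3 h between washes, and grown in a differentiation medium with 10% serum. iFoxA1 has 2 libraries at 0 h and 3 at 24 h, and each other line has 1 and 2. Every line analysed here carries a transgene, so induction of a factor, the change of medium and the passage of time cannot be told apart. In RNA from whole cultures, fewer cells that express a gene and less RNA per cell cannot be told apart either.

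The 8 genes have no common role. MITF is a basic helix-loop-helix leucine zipper factor that binds E boxes (CACGTG or CATGTG) and directs the melanocyte programme; TRPM1 is an ion channel whose gene is a MITF target in melanocytes. MRAS is a small GTPase of the Ras family, SPIC an ETS factor of iron-recycling macrophages, and CDX1 a caudal homeobox factor of the posterior embryo and gut. CYBB (gp91phox) is the catalytic subunit of the phagocyte NADPH oxidase, SLC51A (OST alpha) a subunit of the basolateral bile acid exporter, and HAL the histidine ammonia-lyase that opens histidine breakdown in liver and skin.

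Library totals ran from 17666087 to 37177246 estimated counts. A set of 5 libraries from 24 h, the last replicate of each line, held at least 32942465, and the other 12 held at most 22156695. The labels name no batch, so these are called the second and the first library set here. Within the first set, the iFoxA1 replicates had a median chi-square per gene of 0.653 at 0 h and 0.89 at 24 h. Counting noise alone gives 0.455. Their means were 3.14 and 3.8, where counting noise gives 1, so some genes varied well beyond it. Replicates from different sets of the same line gave medians of 4.57 to 34.9. Transgene RNA checked the labels for 4 factors: each stood at no more than 1.59 TPM in its own line at 0 h and 0.43 TPM in any other line, against 2.85 to 184 TPM in its own line at 24 h. TPM is abundance per transcript length and library total. The lowest of these, Foxl2 in iFoxL2, ranged from 2.85 to 78.1 TPM between the replicates.

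At 0 h, in TPM, Mras stood apart from the other 7 genes. Its mean was 53.4 ± 14.0 TPM (SD, n = 6), with a range of 33.2 to 71.0. Mitf followed at 9.46 ± 1.15 TPM (SD, n = 6) and Spic at 8.55 ± 4.42 TPM (SD, n = 6), and these overlapped. Slc51a had 5.97 ± 1.04 TPM (SD, n = 6), below every Mitf value. Hal (4.28 ± 1.67), Cdx1 (4.11 ± 2.38), Trpm1 (3.79 ± 2.70) and Cybb (3.50 ± 2.29 TPM, SD, n = 6 for each) could not be ordered beyond their spread. At 24 h the mean of Mras was 1.99 ± 0.771 TPM (SD, n = 11) and that of Mitf 0.73 ± 0.272 TPM (SD, n = 11), while the other 6 lay between 0.203 TPM for Slc51a and 0.443 TPM for Hal. In CPM, all 11 libraries at 24 h lay below all 6 at 0 h for each of the 8 genes. In TPM this held for 7 of them: Cybb had 1.13 TPM in the second iFoxC1 replicate at 24 h against 1.03 TPM in iFoxP3 at 0 h. The distance between the groups varied: the lowest 0 h library exceeded the highest 24 h library 9.47-fold in CPM for Mras, 9.12-fold for Slc51a, 8.23-fold for Mitf, and 1.67-fold for Cybb.

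**Figure D1:**
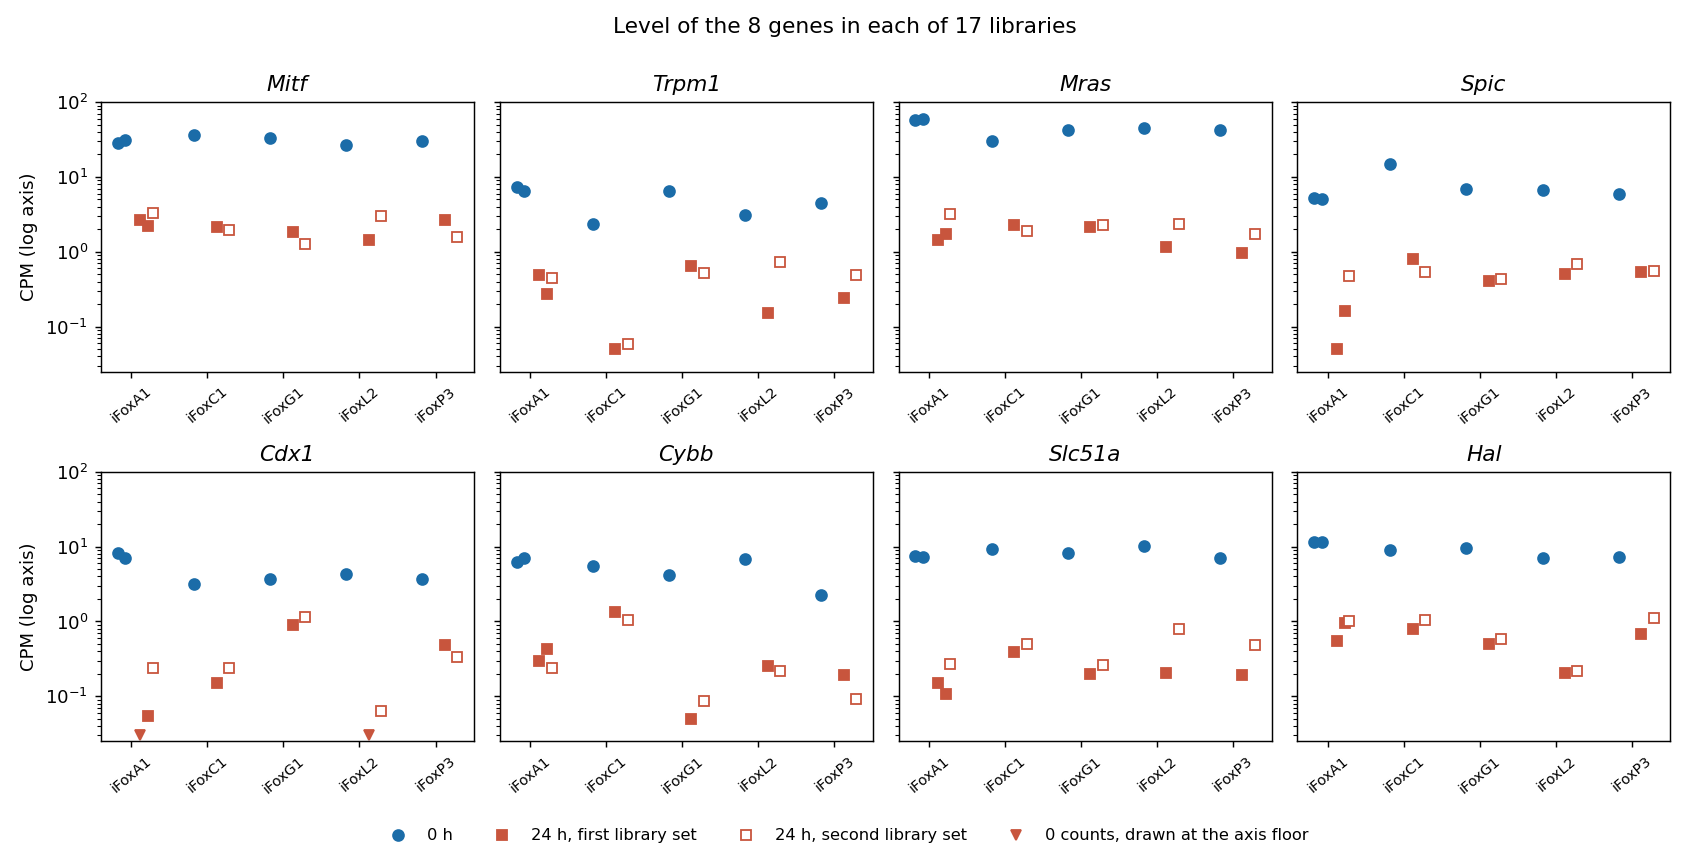
CPM on a log axis for each of the 8 genes in 17 libraries, by line. Circles are 0 h, filled squares the first and open squares the second library set at 24 h, and triangles mark the libraries with 0 counts of Cdx1. In each panel the circles lie above all squares, with the smallest distance for Cybb.

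Mitf (chr6:97807052-98021349, plus strand, mm10) had 28.4 and 30.7 CPM in the iFoxA1 libraries at 0 h, 36.5 in iFoxC1, 33.4 in iFoxG1, 29.9 in iFoxP3 and 26.8 in iFoxL2. At 24 h it had 2.68, 2.20 and 3.25 CPM in iFoxA1, 2.13 and 1.98 in iFoxC1, 1.81 and 1.28 in iFoxG1, 1.42 and 3.04 in iFoxL2, and 2.66 and 1.59 in iFoxP3. At 24 h the 3 iFoxA1 libraries lay above both those of iFoxC1 and those of iFoxG1. Between 4.63% of the 0 h level in iFoxG1 and 9.17% in iFoxA1 was left. The average log2 change was -3.88 (SE 0.19).

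Mitf is read from several starts, each giving its own first exon; the start nearest the shared exons gives the melanocyte form. At 0 h, 96.2% of Mitf's counts, pooled over 6 libraries, were assigned to transcripts from the most upstream start (97807052 to 97807058), nearly all to the 10-exon transcript Mitf-202. The 3 transcripts that start between 97991792 and 97991921, the melanocyte region, took 3.80% of the counts (2.36 to 5.32% by library) and a median of 13.3% of Mitf's TPM, since they are shorter. The 2 transcripts that start between these held no counts. At 24 h the upstream start still had 93.7% of pooled counts, and its abundance was 0.578 ± 0.177 TPM (SD, n = 11) against 8.24 ± 1.15 TPM (SD, n = 6). The melanocyte region had 0.152 ± 0.187 TPM at 24 h and 1.21 ± 0.293 TPM at 0 h, and its median at 24 h was 0. Shares between overlapping transcripts rest on Salmon's assignment of reads and were not measured directly.

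**Figure D2:**
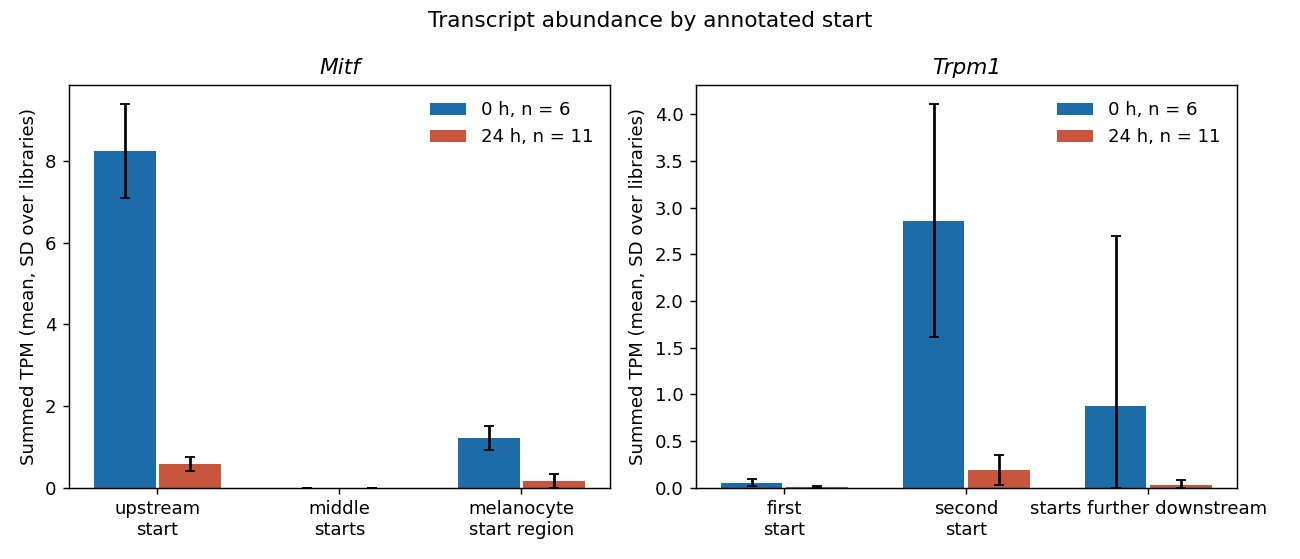
Summed TPM of the transcripts of Mitf (left) and Trpm1 (right), grouped by annotated start; bars are means over 6 libraries at 0 h and 11 at 24 h, and lines the SD, drawn down to 0 at most. The upstream start of Mitf has 8.24 TPM at 0 h and the melanocyte region 1.21, and the second start of Trpm1 has 2.86.

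The bases upstream of the Mitf and Trpm1 starts are shown because the reads fell on them so unequally, and that of Slc51a because it holds the most E boxes among the 8 genes. They come from RefSeq (GRCm38.p6, the mm10 assembly), which has 10 promoter windows for 7 of the genes, and are cut before the first annotated exon base. Each runs 5′ to 3′ on the gene's strand, with capitals for an E box or, in the first, for TGACCTT, which is AAGGTCA on the other strand, the letters bound by nuclear receptors such as ESRRB. The windows are chr6:97806808-97807051, chr6:97991533-97991782, chr7:64153585-64153834 and chr7:64185209-64185380 (plus strand) and chr16:32487880-32488129 (minus strand).
Mitf upstream start: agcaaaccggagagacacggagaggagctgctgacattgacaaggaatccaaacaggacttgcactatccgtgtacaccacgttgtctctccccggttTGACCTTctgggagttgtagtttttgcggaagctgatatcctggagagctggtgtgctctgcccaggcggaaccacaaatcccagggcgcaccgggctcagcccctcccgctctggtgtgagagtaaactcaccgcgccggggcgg
Mitf melanocyte start: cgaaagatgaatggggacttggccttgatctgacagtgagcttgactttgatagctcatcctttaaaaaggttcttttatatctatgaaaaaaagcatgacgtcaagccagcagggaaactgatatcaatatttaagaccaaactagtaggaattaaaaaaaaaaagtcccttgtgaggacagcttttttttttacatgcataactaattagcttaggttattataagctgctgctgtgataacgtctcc
Trpm1 upstream start: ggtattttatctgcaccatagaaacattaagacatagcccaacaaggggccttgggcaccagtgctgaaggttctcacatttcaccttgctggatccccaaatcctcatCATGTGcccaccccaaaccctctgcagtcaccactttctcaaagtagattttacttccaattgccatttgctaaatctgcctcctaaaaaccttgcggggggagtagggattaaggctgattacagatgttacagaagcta
Trpm1 downstream start: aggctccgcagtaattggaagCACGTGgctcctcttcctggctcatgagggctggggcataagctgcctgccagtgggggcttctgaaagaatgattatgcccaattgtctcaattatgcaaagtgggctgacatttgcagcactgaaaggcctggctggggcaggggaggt
Slc51a: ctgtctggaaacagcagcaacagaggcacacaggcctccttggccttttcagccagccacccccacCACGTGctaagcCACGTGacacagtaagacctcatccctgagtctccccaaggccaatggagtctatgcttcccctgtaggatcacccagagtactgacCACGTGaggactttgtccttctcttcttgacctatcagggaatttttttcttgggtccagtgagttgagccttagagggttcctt

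The 2 Mitf windows shown differ in base composition. The upstream one has 58.6% G and C and the melanocyte one 36%. Another Mitf window, not shown, lies in the middle region, whose transcripts held no counts, and has 57.3%. The median over all 32851 RefSeq windows is 52.4%, and 10% of them lie below 38.8%. On both strands of the 250 bases before each start, CACGTG was found in 2 of the 10 windows of the 8 genes (Trpm1 and Slc51a) and in 6.02% of all windows. CATGTG was found in 2 (Trpm1 and Hal) and in 12.3% of all. Slc51a holds CACGTG 3 times, at 184, 172 and 85 bases before its start, and 0.0609% of all windows (20) hold it that often. AAGGTCA was in 1 window, that of the upstream Mitf start, and in 4.08% of all. The forkhead letters TGTTTAC, the STAT letters TTCNNNGAA and the octamer ATGCAAAT were in none of the 10 windows, and in 3.17%, 7.02% and 1.60% of all. Palindromes such as CACGTG were counted once, and a match of letters is not a measured binding site.

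Trpm1 (chr7:64153835-64269775, plus strand) had 7.27 and 6.53 CPM in iFoxA1 at 0 h, 2.37 in iFoxC1, 6.58 in iFoxG1, 4.52 in iFoxP3 and 3.08 in iFoxL2. At 24 h its levels were 0.496, 0.269 and 0.443 CPM in iFoxA1, 0.0496 and 0.059 in iFoxC1, 0.655 and 0.523 in iFoxG1, 0.152 and 0.721 in iFoxL2, and 0.242 and 0.488 in iFoxP3. iFoxC1 was the lowest line at both times. Its 24 h libraries held 3 counts in all, and the pooled ratio of 0 h to 24 h was 42.7 (95% interval 13.8 to 214, counting error only). In iFoxL2 14.2% of the 0 h level was left.

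At 0 h, few Trpm1 reads were assigned to transcripts that encode the channel. The annotated transcripts that begin at the second start region (64185381 to 64185601) took 94.1% of the counts at 0 h, and those from the first start 4.11%. A single transcript, Trpm1-212, had 82.8% of the counts; it has 10 exons and 1992 bases, ends at 64211427 and is annotated as a retained intron. All 6 transcripts of that annotation class had 83.6% of the counts, and the 13 protein-coding ones 15.0%. At 24 h, on few counts, these shares were 30.2% for Trpm1-212, 44.5% for its class and 55.5% for the protein-coding class. The gene also hosts the microRNA miR-211, whose hairpin (chr7:64205806-64205911) lies in intron 6 of Trpm1-212. Its mature 5p sequence is shown, with the seed (bases 2 to 8) in capitals, because reads of the host were found and reads of the microRNA were not.
mmu-miR-211-5p: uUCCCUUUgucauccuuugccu
The Mir211 gene had 0 counts in all 17 libraries, which allows up to 0.00738 CPM over the pooled libraries; mature microRNAs have no polyadenylated tail, and the libraries were made from polyadenylated RNA.

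The other genes around MITF did not move as a block. A list of its relatives and of the nutrient-sensing proteins that control them had 15 tested genes, of which 5 rose and 1 fell; over all 19796 genes tested, 21.7% rose and 16.1% fell on average over the lines (edgeR quasi-likelihood test, adjusted p under 0.05, as for all lists here). Tfeb, which like Mitf drives lysosome genes, fell from 38.4 ± 2.13 (SD, n = 6) to 9.11 ± 4.81 CPM (SD, n = 11), a log2 change of -2.13 (SE 0.15). Its relative Tfe3, whose product holds ES cells back from differentiation while it is in the nucleus, rose from 47.1 ± 8.53 to 97.0 ± 21.6 CPM, a log2 change of 1.11 (SE 0.09). Rptor, the mTORC1 scaffold, rose by 0.44 (SE 0.06) and Rragb by 0.43 (SE 0.10) in log2. Tfec had 6 counts at 0 h and 93 at 24 h. The SE of its average log2 change was 3368, so its test could not decide.

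Of 22 lysosome genes of the network that TFEB drives, 4 rose and 2 fell. Sqstm1 (autophagy receptor) rose by 0.77 (SE 0.07) and Gpnmb by 1.30 (SE 0.28) in log2, and Lamp2 changed by -1.07 (SE 0.24). Of 19 melanocyte genes that MITF is known to activate, 14 could be tested; 2 rose and 3 fell. Pmel, a melanosome fibre protein, fell from 11.9 ± 4.65 to 3.94 ± 3.04 CPM (log2 change -1.74, SE 0.31), Kit, the stem cell factor receptor, fell by 1.87 on the log2 scale (SE 0.42), and Cdk2 by 0.42 (SE 0.09). Gpr143 (0.0421 to 0.261 CPM) and Mlph (0.754 to 2.52 CPM) rose. The pigment enzyme genes Tyr and Tyrp1 were near absence at 0 h, with 0.0672 and 0.0342 CPM. At 24 h they had 0.46 and 0.0211 CPM. Tyr did not pass (log2 change 3.40, SE 1.41, adjusted p = 0.0848, edgeR), and Tyrp1 could not be tested. Among the other TRPM channels 4 of 7 could be tested and none passed. Trpm7 (110 ± 16.1 CPM at 0 h), Trpm4, Trpm6 and Trpm2 had log2 changes of 0.15, 0.27, -0.58 and 1.18, with adjusted p from 0.0956 to 0.466 in edgeR.

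Mras (chr9:99385420-99437381, minus strand) had the highest mean of the 8 genes at 0 h, in CPM as in TPM. In iFoxC1 at 0 h its CPM lay below the 36.5 of Mitf, and at 24 h its mean of 1.92 CPM lay below the 2.19 of Mitf. Mras had 57.4 and 58.9 CPM in iFoxA1 at 0 h, 29.97 in iFoxC1, 42.8 in iFoxG1, 42.7 in iFoxP3 and 44.9 in iFoxL2. It had between 0.967 and 3.16 CPM (median 1.89) in the 11 libraries at 24 h. iFoxC1, the lowest line at 0 h, kept the largest share of its level, 6.96%, and iFoxP3 the smallest, 3.17%. The short protein-coding transcript Mras-204 had the highest abundance at 0 h (median 26.8 TPM), ahead of Mras-203 (9.74 TPM) and Mras-202 (8.90 TPM). By pooled counts the order was another: the 4701-base Mras-201 took 39.2% at 0 h and the 482-base Mras-204 18.7%. Of 16 other Ras-family GTPases, 3 rose and 5 fell. Those with the smallest adjusted p were Ralb (log2 change -0.89, SE 0.14), Eras (-0.78, SE 0.14), the Ras of ES cells, Rras2 (-0.46, SE 0.09) and Rala (-0.29, SE 0.08). MRAS acts with SHOC2 and a PP1 phosphatase to activate RAF kinases. Of 18 genes of that complex and of the RAF pathway, 6 rose and 2 fell. Rasgrp3, an exchange factor, rose from 0.603 ± 0.186 to 5.22 ± 3.98 CPM (log2 change 2.80, SE 0.52), and Sos1 (0.51, SE 0.05), Nf1 (0.73, SE 0.08) and Rapgef1 (0.66, SE 0.12) rose as well. Shoc2 itself had 53.3 ± 6.77 CPM at 0 h and 59.9 ± 11.7 at 24 h (adjusted p = 0.506, edgeR).

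Spic (chr10:88674772-88685015, minus strand) had 5.26 and 5.13 CPM in iFoxA1 at 0 h, 14.9 in iFoxC1, 6.94 in iFoxG1, 5.91 in iFoxP3 and 6.76 in iFoxL2. The single iFoxC1 library was thus more than 2 times every other at 0 h, and it has no replicate. At 24 h Spic ranged from 0.0496 CPM in the first iFoxA1 replicate to 0.793 in the first iFoxC1 replicate. SPIC belongs to the ETS group of PU.1 (Spi1) and SPIB and drives iron-export genes of red-pulp macrophages. Of 8 tested genes from that group and its targets, 3 rose and 1 fell. The target Slc40a1, the iron exporter ferroportin, rose from 1.08 ± 0.457 to 34.5 ± 21.3 CPM while Spic was lower, a log2 change of 4.89 (SE 0.19). Siglec1 fell from 21.1 ± 6.52 to 6.02 ± 3.87 CPM (-1.85, SE 0.55). Spib (1.51, SE 0.36) and Hmox1 (0.39, SE 0.13) rose, and Spi1 had 0.487 ± 0.191 CPM at 0 h and 0.459 ± 0.165 at 24 h.

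Cybb (chrX:9435252-9487771, minus strand) had the smallest p of the 8 genes for a difference among lines at 24 h. At 0 h it had 6.32 and 7.12 CPM in the iFoxA1 libraries, 5.55 in iFoxC1, 4.21 in iFoxG1, 2.23 in iFoxP3 and 6.76 in iFoxL2. At 24 h the iFoxC1 replicates had 1.34 and 1.03 CPM, above the other 9 libraries, which lay between 0.0504 in iFoxG1 and 0.43 in iFoxA1. The share left was 21.4% in iFoxC1 and 1.63% in iFoxG1, with 4.78, 3.50 and 6.38% in iFoxA1, iFoxL2 and iFoxP3. At 0 h Salmon placed 92.0% of its counts on the full-length Cybb-201 and 7.75% on the 390-base Cybb-205 from an upstream start. Per length their medians were close, 1.62 and 1.49 TPM (SD 1.94 for Cybb-205). Of 14 genes for other oxidase subunits and relatives 9 could be tested, and 4 rose and 1 fell. Cyba, the partner that holds CYBB in the membrane, rose from 6.03 ± 2.93 to 9.15 ± 3.34 CPM (0.60, SE 0.13), Rac1 rose by 0.61 (SE 0.09) and Noxo1 by 1.93 (SE 0.16) in log2. Ncf1, a cytosolic subunit, fell from 0.573 ± 0.217 to 0.188 ± 0.117 CPM, and Ncf4 had 1 count at 0 h and 4 at 24 h.

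Macrophage markers did not accompany Cybb and Spic. Adgre1 had 0 counts in all 17 libraries, and Ptprc (0.0819 CPM at 0 h) and Csf1r (0.136 CPM) were near absence. Only 4 of 10 macrophage markers could be tested, and Cd68, also expressed outside macrophages, rose from 13.6 ± 1.39 to 26.4 ± 10.1 CPM. The summed level of the 10 was 12.7 to 18.3 TPM at 0 h and 20.7 to 47.3 TPM at 24 h. The 10 melanocyte markers summed to 10.2 to 12.2 TPM at 0 h and 5.26 to 13.1 TPM at 24 h. The 10 ES cell markers summed to 5620 to 7096 TPM at 0 h and 3626 to 6049 at 24 h. The highest at 24 h were the second-set libraries of iFoxA1 (6049, against 3626 and 3654) and iFoxL2 (5491, against 3705). In iFoxC1, iFoxG1 and iFoxP3 the second-set library was the lower one (4585, 4009 and 4827 against 4864, 4399 and 5129). The part of this in the differences between library sets was not tested. Of the 10 markers 2 rose (Utf1 and Lin28a) and 2 fell, with Nanog at -2.40 (SE 0.39) and Zfp42 at -1.27 (SE 0.28) in log2. Pou5f1 had 1068 ± 102 CPM at 0 h and 967 ± 256 at 24 h (adjusted p = 0.612, edgeR). The 10 primitive endoderm markers summed to 10.1 to 157 TPM at 0 h and 27.2 to 201 TPM at 24 h, with 142 to 201 TPM in iFoxA1 at 24 h and at most 57.8 TPM in the other lines; 4 rose and 1 fell. Of the tested markers of other cell types, 4 of 6 for intestinal epithelium rose (summed 0.848 to 2.06 TPM at 0 h and 1.93 to 7.41 TPM at 24 h), as did 2 of 6 for liver and skin, 2 of 7 for fibroblasts and 2 of 7 for 2-cell-like cells, and none of these fell. Of 6 melanocyte markers 1 rose and 1 fell. The part of the ES state and of these other cell types in the 8 falls was not tested.

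Slc51a (chr16:32474504-32487879, minus strand) had the largest average fall, with a log2 change of -4.67 (SE 0.30). It had 7.15 to 10.3 CPM (median 7.77) in the 6 libraries at 0 h and 0.107 to 0.784 CPM (median 0.261) in the 11 at 24 h, and 2.38% (iFoxA1) to 4.83% (iFoxC1) was left. In percentage points this was the narrowest range of the 8 genes. Most reads at 0 h, 54.7% of the counts, were assigned to a transcript annotated for nonsense-mediated decay, and 33.1% to the protein-coding one. The partner of the exporter, Slc51b, had 0 counts in all 17 libraries, which allows up to 0.00738 CPM when they are pooled. Pcyt1a overlaps the 3′ end of Slc51a by 567 bases on the opposite strand. It had 34.8 CPM at 0 h and 36.04 at 24 h (adjusted p = 0.851, edgeR), and with the strand setting unknown the reads of the overlap cannot be told apart. Of 15 genes of bile acid and sterol transport 7 could be tested, and 3 rose and 1 fell. Nr5a2, a nuclear receptor of bile acid synthesis that is also an ES cell factor, fell from 72.3 ± 7.84 to 16.5 ± 8.07 CPM (-2.12, SE 0.27). The hormone gene Fgf15 (2.91, SE 0.47) and the exporters Abcc4 (1.05, SE 0.25) and Abcc3 (4.33, SE 0.60, from 0.0591 CPM) rose.

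Hal (chr10:93488768-93519304, plus strand) had 11.5 and 11.6 CPM in iFoxA1 at 0 h, 9.15 in iFoxC1, 9.66 in iFoxG1, 7.20 in iFoxP3 and 6.98 in iFoxL2. At 24 h the iFoxL2 replicates were the lowest, 0.203 and 0.219 CPM, and the other 9 libraries had 0.504 to 1.10 CPM. The share left ran from 3.03% in iFoxL2 to 12.3% in iFoxP3. Salmon placed 49.9% of the 0 h counts on a transcript annotated for nonsense-mediated decay and 42.2% on the protein-coding one. The later enzymes of the histidine path were scarce: Uroc1 had 23 counts at 0 h, Ftcd 3, and Amdhd1 rose from 0.297 ± 0.161 to 0.661 ± 0.377 CPM. Of 9 tested genes of histidine use, 4 rose and 2 fell. Hdc, which makes histamine, rose from 0.229 ± 0.223 to 0.667 ± 0.309 CPM (2.82, SE 0.34), Mthfd1 by 0.34 (SE 0.09) and Slc7a5, a transporter of histidine and other large amino acids, by 0.32 (SE 0.09).

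Cdx1 (chr18:61018862-61036199, minus strand) varied most between lines in the share left. At 0 h it had 8.18 and 7.12 CPM in iFoxA1 and 3.13, 3.70, 4.33 and 3.67 in iFoxC1, iFoxG1, iFoxL2 and iFoxP3. At 24 h it had 0, 0.0537 and 0.237 CPM in iFoxA1, 0.149 and 0.236 in iFoxC1, 0.906 and 1.16 in iFoxG1, 0 and 0.0627 in iFoxL2, and 0.484 and 0.336 in iFoxP3. Both iFoxG1 replicates lay above the other 9 libraries. A library with 0 counts allows up to 0.149 CPM in iFoxA1 and 0.152 CPM in iFoxL2. The share left was 28.0% in iFoxG1 and 0.724% in iFoxL2, where 2 counts remained and the pooled ratio was 111.6 (95% interval 29.9 to 937). The description of a strong fall in each line thus applies least to Cdx1 in iFoxG1, whose log2 change was -1.83 (SE 0.87).

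The other caudal genes and the signals that act on them were mixed: of 17 tested genes 8 rose, 1 fell and 8 did not pass. Wnt3a, which induces Cdx1 in the embryo, fell from 1.31 ± 0.271 to 0.182 ± 0.171 CPM (-3.53, SE 0.38). Cdx2 rose from 0.272 ± 0.209 to 2.21 ± 2.41 CPM (2.51, SE 0.64). Cyp26a1, which degrades retinoic acid, rose by 3.70 (SE 0.38), and the WNT effectors Lef1 and Tcf7 by 3.70 (SE 0.59) and 1.16 (SE 0.16) in log2. Over all 11 related lists, 139 of 166 genes were tested; 42 rose and 19 fell, with a median log2 change of 0.21 against 0.04 over all genes tested. The medians of the lists ran from -0.15 for the Ras GTPases to 0.86 for the caudal list.

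**Figure D3:**
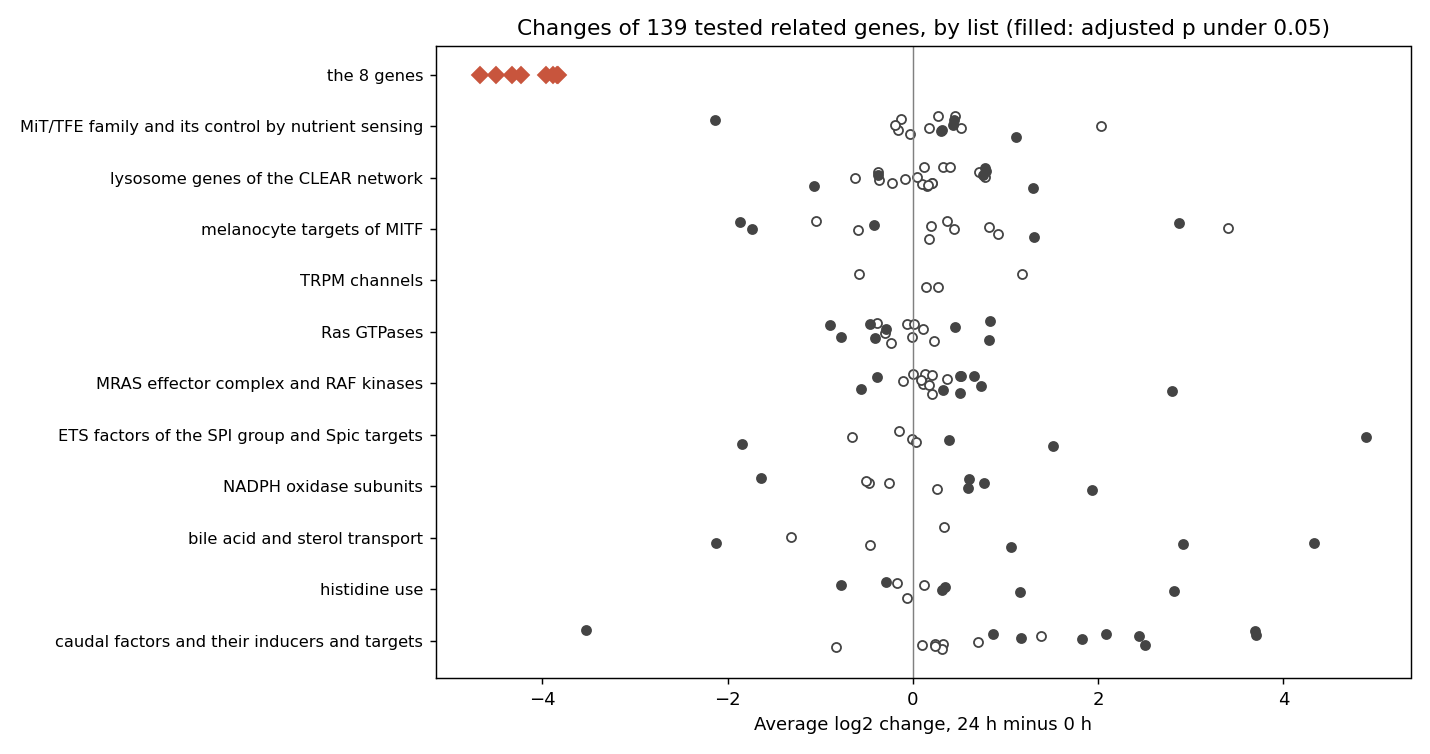
Average log2 change from 0 h to 24 h over the 5 lines for the 8 genes (diamonds) and for 139 related genes by list (circles, filled where the edgeR adjusted p was under 0.05; vertical positions are spread for legibility). The related genes lie on both sides of 0, and none reaches the -3.84 of the last diamond.

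Side by side, the 8 average log2 changes were -4.67 (SE 0.30) for Slc51a, -4.50 (SE 0.21) for Mras, -4.33 (SE 0.42) for Cdx1, -4.24 (SE 0.20) for Cybb, -3.96 (SE 0.30) for Spic, -3.88 (SE 0.19) for Mitf, -3.84 (SE 0.17) for Hal and -3.84 (SE 0.30) for Trpm1, a median of -4.10. All 40 changes by gene and line were negative, as the choice of genes required. Within their line, 37 had an adjusted p under 0.05 in edgeR. That count follows from the choice of genes, so it is a description and nothing is read from it. The share of all genes called falling was 4.14% for iFoxA1, 3.48% for iFoxC1, 2.79% for iFoxP3, 2.30% for iFoxG1 and 1.93% for iFoxL2. The 3 changes above that threshold were Cdx1 in iFoxG1 and in iFoxP3 (-3.16, SE 0.90) and Trpm1 in iFoxL2 (-2.75, SE 0.67).

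**Figure D4:**
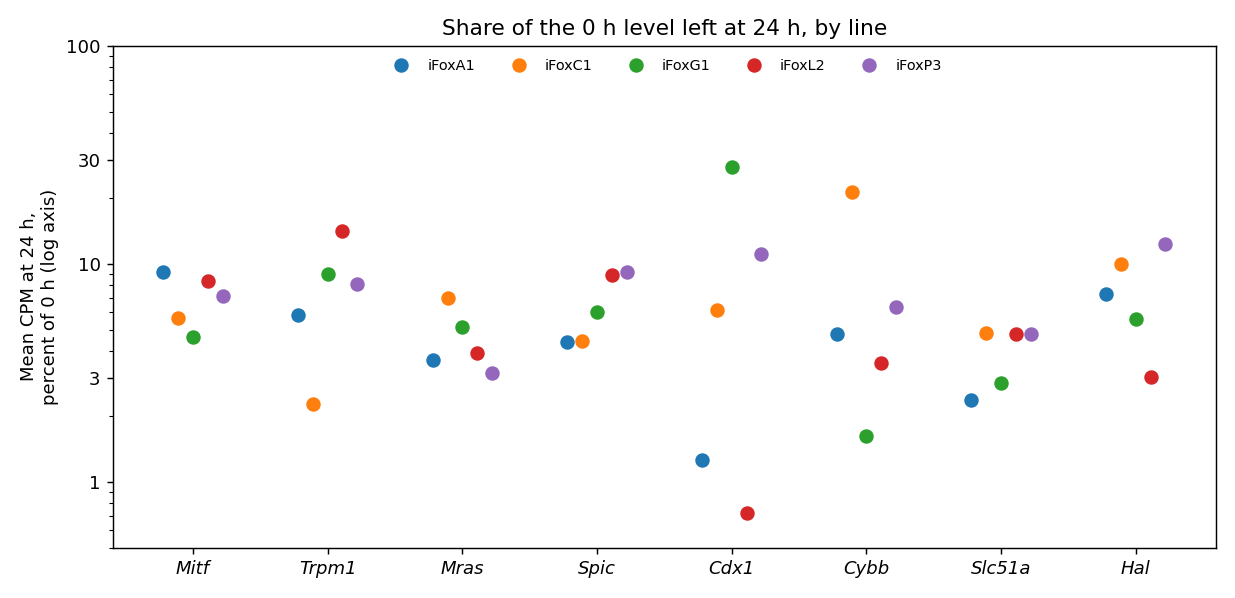
Mean CPM at 24 h as a percent of mean CPM at 0 h, on a log axis, for each of the 8 genes; each point is 1 of the 5 lines. Slc51a spans 2.38 to 4.83%, and Cdx1 spans 0.724 to 28.0%.

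The choice of the 8 genes did not compare the lines at 0 h, but it asked for a fall in every line and a mean of 5 CPM, which these genes owe to 0 h, so it favours genes that are high in all lines at 0 h. At 0 h none of the 8 genes differed among the 5 lines in edgeR's quasi-likelihood F test (0 of 8, where 0.495% of all genes were called). The lowest unadjusted p was 0.0605, for Cybb, so 0 of 8 passed an unadjusted 0.05 as well, and DESeq2 also called 0. With 1 library for 4 of the lines, this does not show equal levels. With the first library set alone, which holds every 0 h library and has replicates in iFoxA1 only, most of the 8 genes passed. So did most of all genes tested there. Spic, with its high iFoxC1 library, had an adjusted p of 0.771 in the fit of all libraries. Primitive endoderm markers differed between lines at 0 h: 6 of 10 passed this F test, and their summed level was 154 and 157 TPM in the iFoxA1 libraries against 10.1 to 16.8 TPM in the other lines. Mras, Hal and Cdx1 were also higher in both iFoxA1 libraries than in every other library at 0 h, in CPM. The part of the markers' cell type in the levels of the 8 genes was not tested.

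At 24 h, where each line has replicates, 3 of the 8 genes differed among lines, where 13.1% of all genes did. The Cybb difference, with iFoxC1 highest, had an adjusted p of 0.00191 in edgeR and passed under each alternative run (highest adjusted p 0.0165). The Hal difference, with iFoxL2 lowest, had an adjusted p of 0.0257, and it missed the threshold in 9 of 17 runs that left out a library. These were either iFoxA1 library at 0 h, the second iFoxA1 replicate at 24 h, or either 24 h replicate of iFoxC1, iFoxG1 or iFoxL2, with adjusted p from 0.0513 to 0.08. The Cdx1 difference, with iFoxG1 highest, had an adjusted p of 0.041 and also missed in 9 of 17 such runs. These were the same iFoxA1 libraries and either 24 h replicate of iFoxC1, iFoxG1 or iFoxP3, with adjusted p from 0.0727 to 0.16. Trpm1, lowest in iFoxC1, had an adjusted p of 0.0941, and passed without either iFoxL2 replicate at 24 h (0.0102 and 0.0114). Mras (0.739), Mitf (0.52), Spic (0.426) and Slc51a (0.36) did not pass; Spic passed without the third iFoxA1 replicate at 24 h (0.0258).

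The 8 genes were picked for a strong fall in every line, which leans a test of unequal falls towards no call, so nothing is read from a missing one. The size of the fall was not shown to differ among the lines for any of the 8 genes by edgeR (0 of 8, where 1.00% of all genes were called). At an unadjusted 0.05, 2 genes passed, Cybb and Cdx1, whose adjusted p were 0.148 and 0.293. DESeq2 called 1, Cdx1, with an adjusted p of 0.00596. In edgeR, Cybb passed once the library set was in the model (adjusted p = 0.0414). In the first library set alone Cdx1, Mras and Cybb passed, but a larger share of all genes passed there.

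Between the library sets at 24 h, Slc51a was higher in the second set, by 0.99 in log2 (SE 0.26, adjusted p = 0.0236, edgeR with the line as a term), and in 5 of 5 lines. Its first-set libraries had 0.107 to 0.397 CPM and its second-set libraries 0.261 to 0.784. Of all genes, 12.7% were higher and 13.6% lower in the second set. The Slc51a call was lost without the third iFoxA1 replicate (adjusted p = 0.0533), either iFoxL2 replicate (0.113 and 0.115) or either iFoxP3 replicate (0.0623 and 0.0627) at 24 h. The other 7 genes did not pass; Hal was also higher in 5 of 5 lines (0.40, SE 0.19, adjusted p = 0.144) and Mras in 4 of 5 (0.55, SE 0.19, adjusted p = 0.06), and Mras passed without either 24 h replicate of iFoxC1 (0.0152 and 0.0153) or the iFoxP3 library at 0 h (0.0496). Mras also passed without the filter on low counts (0.0378). DESeq2 called Mras (0.0413) in place of Slc51a (0.0561). All 0 h libraries belong to the first set. Within the first set alone the average change of Slc51a was -5.27, a larger fall than the -4.67 of all libraries. Cdx1 had -5.33 there, so the rank of Slc51a as the largest fall depends on the libraries used.

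The genes next to the 8 on their chromosomes moved in both directions. Of the nearest tested protein-coding gene on each side, 16 in all, 6 fell, 4 rose and 6 did not pass. Over all genes tested, 16.1% fell and 21.7% rose. Slc6a7, which lies 4640 bases from Cdx1 and carries proline into neurons, fell from 1.63 to 0.26 CPM (-3.43, SE 0.31). The Spic neighbours Mybpc1 (-1.66, SE 0.19) and Arl1 (-0.67, SE 0.12) fell, as did Esyt3 beside Mras (-0.65, SE 0.09), Dynlt3 beside Cybb (-0.74, SE 0.15) and Tfrc, the transferrin receptor, beside Slc51a (-0.62, SE 0.21). Foxp1, 903989 bases from Mitf, rose by 1.66 (SE 0.10), Klf13 beside Trpm1 by 0.58 (SE 0.07), Xk beside Cybb by 1.42 (SE 0.22), and Amdhd1, 4034 bases from Hal and itself an enzyme of histidine breakdown, by 1.15 (SE 0.41). Armc8, Frmd4b, Mtmr10, Pcyt1a, Lta4h and Pdgfrb did not pass.

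Beyond the shared fall, the 8 genes were not seen to vary together as a set. After the mean of each time point was removed, Pearson's r of log2 CPM over the 17 libraries ran from -0.70 to 0.66 over the 28 pairs, with a median of 0.08. Most of the 8 genes had few counts a library at 24 h, such as 0 to 40 for Cdx1 and 1 to 23 for Trpm1. Counting noise at such levels pulls r towards 0, so a low r does not show that they vary independently. Among 10209 named protein-coding genes, those most like each gene by this measure were Snx10 for Mitf (r = 0.895), Pcyt1b for Trpm1 (0.899), Dmwd for Mras (0.84), Zdhhc24 for Spic (0.908), Pramel7 for Cybb (0.931), Snapc2 for Slc51a (0.917), Etv6 for Hal (0.868) and Dab2ip for Cdx1 (0.907). The next were Ddx50 and Skida1 for Mitf, Enox2 and As3mt for Trpm1, Tctn3 and Cyth2 for Mras, Plpp2 and Pcnx for Spic, Pramel6 and Jcad for Cybb, Msto1 and Prmt5 for Slc51a, Sharpin and Snx24 for Hal, and Fam49a and Slc29a4 for Cdx1. Pramel6 (r = 0.902), a PRAME-family gene of ES cells whose reads may be divided with close copies, is also among the 12 largest average falls, at -4.62 (SE 0.22). The libraries share lines and sequencing depth, so these are descriptions without a p.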

How the data were processed

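The authors deposited 2 tables for 17 libraries, estimated counts per transcript and TPM per transcript, both made with Salmon 1.4.0; DESeq2 1.30.1 and mm10 are also named, per the submitters' processing notes. The annotation and strand setting are not given in the sources used here. Of 137271 transcripts, 137225 matched GENCODE M21 by identifier; the rest, at most 0.0133% of a library, were left out. Counts were summed per symbol and rounded, kept by edgeR's filterByExpr (19796 genes), TMM-scaled and fitted by quasi-likelihood with 10 groups (edgeR 4.0.16, R 4.3.3; 7 residual degrees of freedom; DESeq2 1.42.0 as an alternative). Lines with 1 library at 0 h were assumed to vary like the others. Calls are Benjamini-Hochberg adjusted p under 0.05 over all genes. The labels do not say that replicates are separate cultures, so a p-value here rests on the spread among libraries, which may be technical. CPM values use TMM-adjusted totals; log2 CPM uses a prior count of 2. Intervals and limits for 0 counts (3 counts) cover counting error only, and PCR copies were not removed by molecular identifiers as far as the labels say.

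The 8 genes and the related and marker lists were chosen with earlier results of these data known. Named genes are the 8, the 4 smallest adjusted p-values of each list, defining markers, both neighbours, and the 3 genes most like each by r; Kit, Cdx2, Cyba, Cd68, Pou5f1, Shoc2, Spi1, Slc51b, Tfec, Ncf4, Uroc1, Ftcd and Amdhd1 were added for their role after their values were seen. Promoter and microRNA sequences are from RefSeq. The tests were tried on simulated counts with the same spread for all genes and no difference between library sets. That check does not cover the larger spread between the sets seen here. Alternatives were RLE factors, no filter, the library set or the replicate number as a term, the first library set alone, DESeq2, leaving out each library, and TPM for CPM. The values of a few genes that these rules would name are not reported here.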

Additional observations from a re-analysis of the deposited data

Results flagged for a closer look

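Noxo1, the organiser of the NOX1 oxidase and a relative of Cybb's partners, rose by amounts that differed among the lines (edgeR interaction test, adjusted p = 0.04432). Its log2 change was 3.77 in iFoxA1, from 0.915 to 12.5 CPM, and 1.72, 1.66, 0.67 and 1.83 in iFoxC1, iFoxG1, iFoxL2 and iFoxP3. Foxp1, the tested gene next to Mitf on the side of higher coordinates, also rose by amounts that differed among the lines (adjusted p = 0.04012). Its log2 change was 3.17 in iFoxC1, from 5.03 to 45.2 CPM, and 1.14, 0.99, 1.51 and 1.503 in iFoxA1, iFoxG1, iFoxL2 and iFoxP3. In iFoxC1 the 0 h level rests on 1 library. They were the only calls by this test among the 8 genes, the 139 tested related genes and the 16 neighbours. Of all genes, 1.00% were called, and the share among these was near that.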

How the results depend on the processing

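The median fall of the 8 genes, the 42 rising related genes and the counts of neighbours stayed within 1.5 times of their values under every alternative run. Single genes moved more. Leaving out 1 library put the average log2 change of Cdx1 at -4.97 to -3.76 and that of Cybb at -4.74 to -3.86. For Cdx1 these ends came without the only 0 h library of iFoxG1 or iFoxL2, and for Cybb without that of iFoxC1 or iFoxG1. Such a run takes the whole line out of the average, so these ranges hold the differences between lines. With the first library set alone (2 residual degrees of freedom, replicates in iFoxA1 only), 6 of the 8 genes differed among lines at 0 h, 5 at 24 h and 3 in their change, and 99 related genes changed (43 falling) against 61 (19 falling). The change differed among lines for 1 gene when the model held the library set (Cybb, adjusted p = 0.0414) and for 1 with DESeq2. Between library sets, 2 genes passed without the filter. When a library was left out, 1 to 4 genes differed among lines at 24 h and 0 to 2 between sets. Slc51a had an adjusted p of 0.0561 in DESeq2 and up to 0.115 (without the second iFoxL2 replicate at 24 h). Hal at 24 h had 0.063 without the filter and 0.107 in the first set, and Trpm1 passed with DESeq2 (0.0412) and with the library set in the model (0.0493).

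With the replicate block, 0 genes passed between library sets (Slc51a adjusted p = 0.409), and Spic passed among lines at 24 h (0.0353). Whether replicate numbers pair the samples could not be decided. The deviations of iFoxA1 replicates 1 and 2 from their group means had r of 0.04 and 0.0027 across times. At 24 h that mean includes replicate 3, which lay far from both (median chi-square per gene 24.7 and 23.3, against 0.89 between replicates 1 and 2). At 0 h the group has 2 libraries, so their deviations mirror each other. These r could therefore not detect a pairing. Replicate 2 at 24 h of the 4 other lines, all of the second set, had r of 0.551 to 0.757 between lines. The Mitf difference between sets, 0.07 in log2, turned to -0.0247 with the block, -0.0685 without the third iFoxA1 replicate at 24 h, and -0.147 and -0.151 without either iFoxL2 replicate at 24 h, and reached 0.25 without the first iFoxP3 replicate at 24 h. The Spic difference, 0.37, turned to -0.169 with the block and -0.0131 without that iFoxA1 replicate, and reached 0.65 without the first iFoxC1 replicate at 24 h. None of these passed a test. The cause was not tested.

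Over all genes, calls among lines at 0 h went from 98 to 703 when the library set was in the model, 315 with the block, 10566 in the first set and 1251 in DESeq2; at 24 h from 2588 to 4882, 4232, 11357 and 4440; for the change from 198 to 958, 618, 9869 and 1631. Calls on the average change went from 7490 to 12237 in the first set, and those between sets from 5211 to 451 with the block. Leaving out 1 library gave 2 to 492, 1382 to 4686 and 14 to 1049 in the first 3. At 24 h, levels near 0.05 CPM are 1 to 2 counts a library, which limits Trpm1 in iFoxC1 and Cdx1 in iFoxL2 and iFoxA1.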
